A study of Rattus norvegicus with 12 samples.

Results

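The genes described here are factors that set tubule identity or build the nephron: Hnf4a, Pax2, Pax8, Sox4, Sox9, Lhx1, Esrrg and Prom1. All probes outside the array's controls whose transcript accession led to one of these rat symbols were taken, which gave 18 of 61537 probes, from 7 of the 8 genes. Hnf4a, Sox4 and Prom1 had 4 probes each, Pax2 and Lhx1 had 2 each, and Pax8 and Esrrg had 1 each. Sox9 was matched by 0 probes and is not analysed here.

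Kidney tubules keep their segment character through transcription factors that stay on after development. Hnf4a is a nuclear receptor that drives the transporter and metabolic genes of the proximal tubule, and Esrrg is an estrogen-related orphan receptor linked to mitochondrial and ion transport genes. Pax2, Pax8 and Lhx1 act from the earliest stages of nephron formation, Sox4 is a transcription factor of immature epithelium, and Prom1 encodes the membrane protein CD133, used as a marker of progenitor-like tubule cells.

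Gene expression was measured with 1-colour arrays in kidney cortex. The animals were Sprague-Dawley males, 5 weeks old when bought, and were dosed for 4 weeks. The 4 groups, of 3 animals and 3 arrays each, received water by gavage, cisplatin by gavage at 3.75 mg/kg/day, water by intravenous injection, or cisplatin intravenously at 0.75 mg/kg/day. Cisplatin is a platinum drug that damages the proximal tubule. Route, dose and experiment changed together between the experiments and cannot be told apart. The shared treatment description gives 3.75 mg/kg/day for all animals, and the intravenous dose is the one on the sample labels.

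Levels are log2 signals with the 75th percentile of each array set to 0, so a level can be compared between groups for a probe but not between probes. Changes are differences of group means, cisplatin minus water, with their standard error (SE) from limma, fitted to all 12 arrays. A change was called at a Benjamini-Hochberg adjusted p under 0.05 over all 34444 features (genes and unnamed probes) tested. The water groups served as the control in each experiment. The 75th percentile of the raw signal was 970 to 1055 on the water arrays and 1387 to 1532 on the cisplatin arrays, and 66.1% to 73.9% of probes were well above background. Arrays of the same group correlated at 0.981 to 0.993. Intravenous cisplatin replicate 1 correlated less with its group (0.982 and 0.981) than the other two did with each other (0.990). The 10 proximal tubule markers and the 8 podocyte markers measured were above background on all arrays, and values over the marker lists are given below.

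With gavage cisplatin, 2 of the 7 genes rose (Pax8 and Sox4), 4 fell (Hnf4a, Pax2, Lhx1 and Esrrg) and Prom1 did not pass. With intravenous cisplatin the same counts were obtained for the same genes. Cisplatin moved much of the transcriptome: 59.3% of all features were called in the gavage experiment (29.5% higher and 29.8% lower) and 58.4% in the intravenous experiment (26.4% higher and 32% lower), so that being called is a common outcome here. The median change of the 7 genes was -0.55 (gavage) and -0.92 (intravenous), the values of Pax2, against 0.0068 and -0.063 over all features. Over the 18 probes the median was 0.11 and 0.31, so its sign depends on whether genes or probes are counted. The cisplatin and water arrays did not overlap for 6 of the 7 genes in the gavage experiment and for all 7 in the intravenous experiment, beside 67% (33.3% higher and 33.7% lower) and 66% (29.7% and 36.3%) of all features. Of the 18 probes, 6 rose and 8 fell with gavage and 7 rose and 8 fell intravenously, beside 59.6% (29.6% higher and 29.9% lower) and 58.2% (27.6% and 30.6%) of all probes. In whole cortex, fewer cells of a type and less RNA per cell cannot be told apart.

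**Figure D1:**
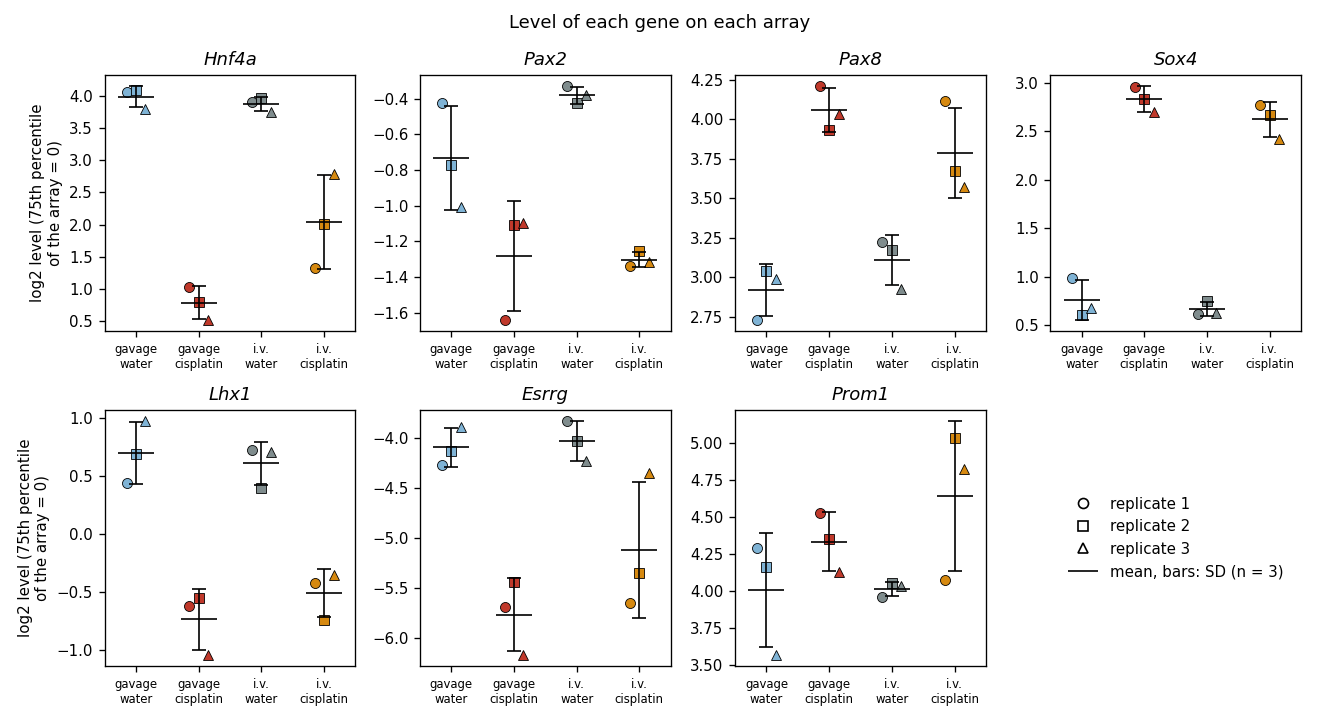
Log2 level of each gene on each of the 12 arrays (y axis, 75th percentile of the array at 0, each panel with its own range), by group (x axis); points are arrays, lines and bars are the mean and SD of 3 arrays. Hnf4a, Lhx1 and Esrrg lie lower and Sox4 and Pax8 higher in both cisplatin groups, and intravenous cisplatin spans 1.33 to 2.79 for Hnf4a.

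Hnf4a showed the largest fall of the 7 genes in both experiments. Its brightest probe (A_44_P791953) read 4.06, 4.09 and 3.80 on the gavage water arrays and 1.03, 0.80 and 0.52 on the gavage cisplatin arrays. It read 3.91, 3.96 and 3.75 with intravenous water and 1.33, 2.00 and 2.79 with intravenous cisplatin. The 6 water arrays lay together, the 6 cisplatin arrays lay below all of them, and the intravenous cisplatin arrays were spread most widely (SD 0.73, against 0.16, 0.25 and 0.11 in the other groups). The fall was 9.16-fold with gavage (log2 -3.20, SE 0.30, adjusted p = 1.27e-05) and 3.56-fold intravenously (log2 -1.83, SE 0.30, adjusted p = 5.34e-04). The lowest intravenous array, replicate 1, was also the one nearest to the gavage cisplatin arrays for Esrrg, Pax8 and the proximal tubule markers described below.

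The remaining 3 Hnf4a probes gave falls of the same kind. They carry the accessions of 2 RefSeq transcripts, which have 2 probes each. On the probe A_43_P12146 the water arrays read 0.41 to 0.99, gavage cisplatin -3.55 to -2.83 and intravenous cisplatin -2.61 to -0.82, a change of -3.73 (SE 0.39) and -2.39 (SE 0.39). The probe A_64_P046573 changed by -3.44 and -2.41, and A_44_P419188 by -2.98 and -1.99. On all 4 probes intravenous cisplatin replicate 1 was the lowest of its group. The 4 probes passed the fit over all probes in both experiments.

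Hnf4a is known for alternative promoters, and 2 upstream windows of it are held in the RefSeq promoter table (assembly GRCr8). They are shown because Hnf4a carried the largest change, and because probes for 2 of its transcripts were measured. The windows are the 250 bases before each start on the plus strand, at chr3:172605970-172606219 and chr3:172641586-172641835. Capitals mark CG dinucleotides, the sites of DNA methylation.

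Hnf4a upstream window 1: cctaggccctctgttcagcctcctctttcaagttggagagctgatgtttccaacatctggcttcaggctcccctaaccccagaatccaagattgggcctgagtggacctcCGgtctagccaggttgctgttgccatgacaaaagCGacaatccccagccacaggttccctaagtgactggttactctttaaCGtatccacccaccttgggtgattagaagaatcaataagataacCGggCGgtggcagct

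Hnf4a upstream window 2: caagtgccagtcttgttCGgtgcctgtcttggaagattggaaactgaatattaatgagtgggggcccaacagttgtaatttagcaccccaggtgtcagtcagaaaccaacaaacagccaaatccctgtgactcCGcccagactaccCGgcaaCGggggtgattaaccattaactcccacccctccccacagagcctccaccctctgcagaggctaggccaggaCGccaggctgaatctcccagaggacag

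Both windows held 5 CG dinucleotides, which is also the median over all 33469 windows of this length in the table. The GC content was 52.4% in window 1 and 54.8% in window 2, beside a median of 51.2% over all windows. The table had 11 windows for 6 of the 8 genes, Sox4 and Sox9 being named only. Sequences searched on both strands matched 0 of the 11 windows: AAGGTCA of the estrogen-related receptors (3.99% of all windows), CAAAGTCCA of HNF4 (0.338%), AACAAT of SOX factors (10.3%) and TATAAA (12.9%). A match, or its lack, describes these letters and not a measured binding site. Which probe reports which start was not tested.

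Esrrg also fell in both experiments, on a probe that was dim throughout. It read -4.27, -4.13 and -3.89 with gavage water and -5.69, -5.44 and -6.16 with gavage cisplatin, where replicate 3 was not well above background. It read -3.84, -4.04 and -4.23 with intravenous water and -5.65, -5.35 and -4.36 with intravenous cisplatin. No cisplatin array overlapped a water array, but intravenous cisplatin replicate 3 lay only just below them. The changes were -1.67 (SE 0.30, 3.17-fold lower, adjusted p = 8.98e-04) and -1.08 (SE 0.30, 2.12-fold lower, adjusted p = 0.0114). They shrank to -0.70 and -0.52, and still passed, when local background was modelled (normexp) and arrays were quantile-normalized.

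Pax2 and Pax8 are related factors. Pax8 rose, while the brighter Pax2 probe fell and the dimmer one changed by only -0.06 (gavage) and -0.01 (intravenous). Scaled on spike-in control probes, as described below, the brighter Pax2 probe changed by 0.11 and -0.37 and passed in neither experiment. Pax8, measured by 1 probe, read 2.73, 3.04 and 2.99 with gavage water and 4.21, 3.93 and 4.03 with gavage cisplatin. It read 3.23, 3.17 and 2.93 with intravenous water and 4.11, 3.67 and 3.57 with intravenous cisplatin. All cisplatin arrays lay above all water arrays, with intravenous replicate 1 at the level of the gavage group. Pax8 rose 2.20-fold with gavage (log2 1.14, SE 0.16, adjusted p = 1.46e-04) and 1.60-fold intravenously (log2 0.68, SE 0.16, adjusted p = 0.00404).

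Pax2 fell by a small amount on the brighter of its 2 probes. The values were -0.42, -0.77 and -1.01 with gavage water and -1.64, -1.11 and -1.10 with gavage cisplatin. With intravenous water they were -0.33, -0.43 and -0.38, and with intravenous cisplatin -1.34, -1.25 and -1.32. The intravenous groups were tight and well apart, while the gavage groups nearly met, since gavage water replicate 3 lay close to cisplatin replicates 2 and 3. The changes were -0.55 (SE 0.17, adjusted p = 0.0170) and -0.92 (SE 0.17, adjusted p = 0.00109). Without gavage water replicate 1 the gavage change was -0.39 (adjusted p = 0.0675), without gavage cisplatin replicate 1 it was -0.37 (adjusted p = 0.0554), and on the 6 gavage arrays alone it was -0.55 (adjusted p = 0.0678), so the gavage call did not hold in these fits. The dimmer Pax2 probe disagreed. It read between -3.96 and -3.50 on all 12 arrays and changed by -0.06 (adjusted p = 0.660) and -0.01 (adjusted p = 0.924), with overlapping groups.

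Lhx1, a LIM homeobox factor needed for the early nephron, fell on both of its probes. The brighter probe read 0.43, 0.69 and 0.97 with gavage water and -0.62, -0.55 and -1.04 with gavage cisplatin. It read 0.73, 0.39 and 0.70 with intravenous water and -0.42, -0.75 and -0.36 with intravenous cisplatin. Every cisplatin array was below every water array, and the cisplatin groups overlapped each other. The falls were 2.70-fold (log2 -1.43, SE 0.18, adjusted p = 8.78e-05) and 2.17-fold (log2 -1.12, SE 0.18, adjusted p = 5.45e-04). The dimmer probe changed by -1.44 and -0.96.

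Sox4 rose on all 4 probes and had the smallest SE of the 7 genes. Its brightest probe read 0.99, 0.61 and 0.68 with gavage water and 2.96, 2.83 and 2.69 with gavage cisplatin. It read 0.62, 0.74 and 0.63 with intravenous water and 2.77, 2.67 and 2.42 with intravenous cisplatin. Water and cisplatin arrays were far apart, and the cisplatin groups overlapped each other. Sox4 rose 4.20-fold with gavage (log2 2.07, SE 0.13, adjusted p = 1.46e-06) and 3.88-fold intravenously (log2 1.95, SE 0.13, adjusted p = 3.36e-06). The second bright probe rose by 2.09 and 2.07, and both dim ones by 1.50 and 1.66 and by 1.36 and 1.22.

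**Figure D2:**
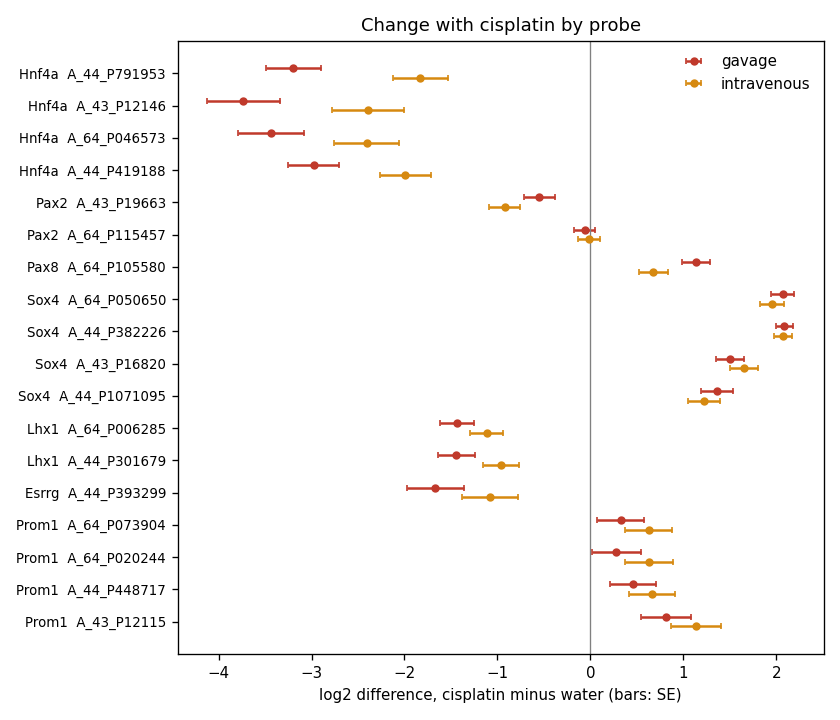
Change with cisplatin on each of the 18 probes (x axis, log2 difference of cisplatin minus water, bars: SE), for gavage and intravenous dosing; probes are on the y axis. The 4 Hnf4a probes lie between -3.73 and -1.83, the 4 Sox4 probes between 1.22 and 2.09, and the dimmer Pax2 probe sits at 0.

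Prom1 did not pass on its brightest probe in either experiment. It read 4.29, 4.16 and 3.57 with gavage water and 4.52, 4.35 and 4.13 with gavage cisplatin, and these groups overlapped. It read 3.96, 4.05 and 4.03 with intravenous water and 4.07, 5.03 and 4.82 with intravenous cisplatin, where replicate 1 was barely above the water arrays. The changes were 0.33 (SE 0.25, adjusted p = 0.284) and 0.63 (SE 0.25, adjusted p = 0.0524). The interval of the intravenous change (95%) was 0.07 to 1.19, and that of the gavage change -0.23 to 0.88. Without intravenous cisplatin replicate 1 the intravenous change was 0.91 (adjusted p = 0.00502). Without gavage water replicate 3, which enters this contrast only through the shared estimate of the spread, it stayed at 0.63 (adjusted p = 0.0353). The intravenous call is borderline, and was made in 9 of 25 other settings.

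The Prom1 probes differed in size of change, and the dimmest gave the largest. On it the gavage groups read -1.18, -1.11 and -1.84 (water) and -0.38, -0.46 and -0.83 (cisplatin), and the intravenous groups -1.40, -1.40 and -1.15 (water) and -0.78, 0.21 and 0.02 (cisplatin). It passed in both experiments, with 0.82 (SE 0.27, adjusted p = 0.0229) and 1.13 (SE 0.27, adjusted p = 0.00476). Another probe changed by 0.46 (adjusted p = 0.139) and 0.66 (adjusted p = 0.0431), and the last by 0.28 (adjusted p = 0.375) and 0.63 (adjusted p = 0.0589). On all 4 probes gavage water replicate 3 was the lowest gavage array and intravenous cisplatin replicate 1 the lowest of its group.

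The experiments were compared gene by gene, as the intravenous minus the gavage change. None of the 7 genes passed limma's test of this difference, beside 1.2% of all features (0.168% higher and 1.03% lower) and 0.815% of all probes (0.169% and 0.647%), and 1 gene (Hnf4a) had an unadjusted p under 0.05, beside 6692 of 34444 features. Hnf4a fell less intravenously, by 1.36 (SE 0.42, interval 0.43 to 2.30, adjusted p = 0.127). It passed when intravenous cisplatin replicate 1 was left out (1.72, adjusted p = 0.0241) and with array weights (1.54, adjusted p = 0.0289). In these fits 2283 and 2435 of 34444 features passed, beside 413 in the main fit. For Pax8 the difference was -0.46 (interval -0.95 to 0.03), for Esrrg 0.58 (-0.37 to 1.54) and for Pax2 -0.37 (-0.90 to 0.16). For Lhx1 it was 0.32 (-0.25 to 0.89), for Prom1 0.30 (-0.49 to 1.09) and for Sox4 -0.11 (-0.52 to 0.29). These intervals leave room for differences of either sign in 6 of the genes, and the missed threshold does not show that the experiments acted alike.

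The water groups of the experiments were close for all 7 genes. The differences, intravenous minus gavage water, were -0.11 (Hnf4a), 0.35 (Pax2), 0.19 (Pax8), -0.09 (Sox4), -0.09 (Lhx1), 0.06 (Esrrg) and 0.01 (Prom1). None passed in limma and 0 had an unadjusted p under 0.05, beside 0% of all features called and 4864 features at an unadjusted p under 0.05. By group mean, Hnf4a, Lhx1 and Esrrg were ordered gavage cisplatin, intravenous cisplatin and then both water groups, from low to high, and Pax8 and Sox4 in reverse. For Pax2 the cisplatin groups were level at -1.28 and -1.30, below gavage water at -0.73 and intravenous water at -0.38. Prom1 stood at 4.01 in both water groups, 4.33 with gavage cisplatin and 4.64 with intravenous cisplatin. Neighbours within the water pair did not differ beyond the tests above.

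**Figure D3:**
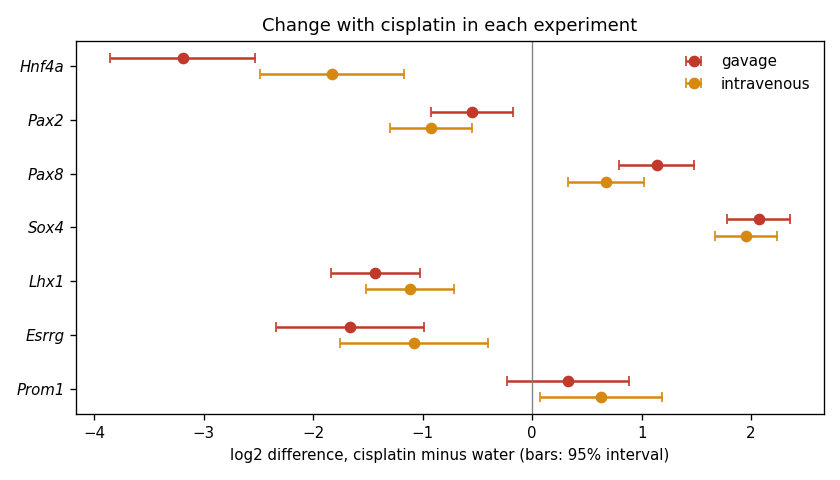
Change with cisplatin in each gene (x axis, log2 difference of cisplatin minus water, bars: 95% interval; y axis: genes) in the gavage and the intravenous experiment. Pax8 and Sox4 lie to the right of 0, Hnf4a, Pax2, Lhx1 and Esrrg to the left, and the widest gap between experiments is that of Hnf4a (-3.20 and -1.83).

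The directions depend in part on what the arrays are scaled to. When arrays were scaled on 7 spike-in control probes, the median of all features moved to 0.67 (gavage) and 0.49 (intravenous), and rises made up 86.8% and 85.1% of the calls, against 49.8% and 45.1% on the 75th percentile scale. Of 34444 features, 21569 then rose and 3290 fell with gavage, and 18473 rose and 3241 fell intravenously. All spike-in counts for the gene lists below stand beside these numbers. On the spike-in scale Hnf4a still fell (-2.54 and -1.28), as did Lhx1 (-0.77 and -0.56), while Pax8 (1.80 and 1.23) and Sox4 (2.73 and 2.51) rose. Pax2 changed sign with gavage (0.11, adjusted p = 0.656) and did not pass intravenously (-0.37, adjusted p = 0.161). Its dimmer probe rose on that scale, by 0.60 (adjusted p = 0.00424) and 0.54 (adjusted p = 0.00865). Esrrg passed with gavage (-1.01, adjusted p = 0.0187) and not intravenously (-0.53, adjusted p = 0.188). Prom1 passed in both (0.99, adjusted p = 0.00727, and 1.18, adjusted p = 0.00309). Relative to the shifted median, the changes were -3.20 and -1.77 for Hnf4a, -0.56 and -0.86 for Pax2 and 0.32 and 0.69 for Prom1.

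**Figure D4:**
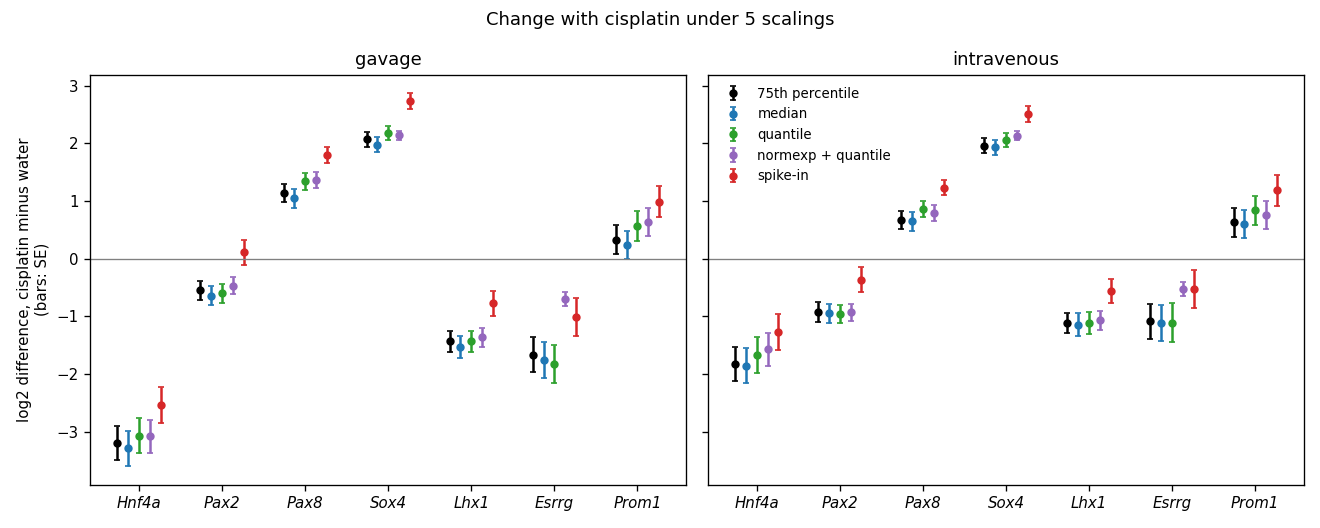
Change with cisplatin in each gene (y axis, log2 difference, bars: SE; x axis: genes) under 5 scalings of the arrays, for gavage and intravenous dosing. Spike-in scaling lifts every gene relative to 75th percentile scaling, and takes Pax2 from -0.55 to 0.11 with gavage.

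The arrays lay on 3 slides. On slide 1 were all water arrays of the gavage experiment with 1 of its cisplatin arrays (replicate 1), and with the slide as a block the gavage change rests on that slide alone. It was -2.95 for Hnf4a, -0.91 for Pax2, 1.29 for Pax8, 2.20 for Sox4, -1.31 for Lhx1, -1.59 for Esrrg and 0.52 for Prom1, and the calls stayed as they were. Slide 3 held the intravenous cisplatin arrays and no others, so slide and group cannot be told apart there.

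Other regulators of the proximal tubule fell with Hnf4a and Esrrg. In a list of nuclear receptors and proximal tubule factors, 0 of 13 rose and 11 fell with gavage (median -1.10), and 0 rose and 10 fell intravenously (median -0.88). For this and the lists below, the shares over all features were 29.5% higher and 29.8% lower with gavage, and 26.4% and 32% intravenously. Maf, a leucine zipper factor of proximal tubule differentiation, changed by -2.67 and -1.47, the bile acid receptor Nr1h4 by -2.68 and -1.49, and the zinc finger factor Klf15 by -1.40 and -1.19. With spike-in scaling, described above, 6 and 5 of the 13 fell, beside 3290 and 3241 of 34444 features.

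Genes linked to HNF4A in proximal tubule were lower in nearly all cases. Of 22 measured, 21 fell and 1 rose with gavage (median -3.08), and 17 fell and 1 rose intravenously (median -1.74). The neutral amino acid transporter Slc6a19 changed by -3.84 (SE 0.30) and -2.51 (SE 0.30), the glucose transporter Slc5a2 by -3.25 (SE 0.32) and -1.57 (SE 0.32), and the endocytic receptor Lrp2 by -2.35 and -1.73. Hao2, a peroxisomal oxidase, changed by -1.78 and -1.23. The gene that rose, Slc2a2, a basolateral glucose transporter, was picked out after its values were seen (0.60 and 1.05). Of this list 7 genes are also among the 10 proximal tubule markers, so these lists are not independent of each other.

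The list linked to ESRRG, of mitochondrial and ion transport genes, also fell as a group. Of 23 measured, 21 fell and 0 rose in each experiment (medians -1.33 and -0.95). Atp5f1b, a subunit of ATP synthase, changed by -1.40 (SE 0.10) and -1.10 (SE 0.10), the respiratory chain subunit Ndufa4 by -1.33 and -1.20, the sodium-proton exchanger Slc9a3 by -3.55 and -2.25 and the succinate dehydrogenase subunit Sdhb by -1.04 and -0.86. Scaled on the spike-ins, 9 of 23 fell intravenously, and 11 of the 22 HNF4A-linked genes did, beside 3241 of 34444 features.

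**Figure D5:**
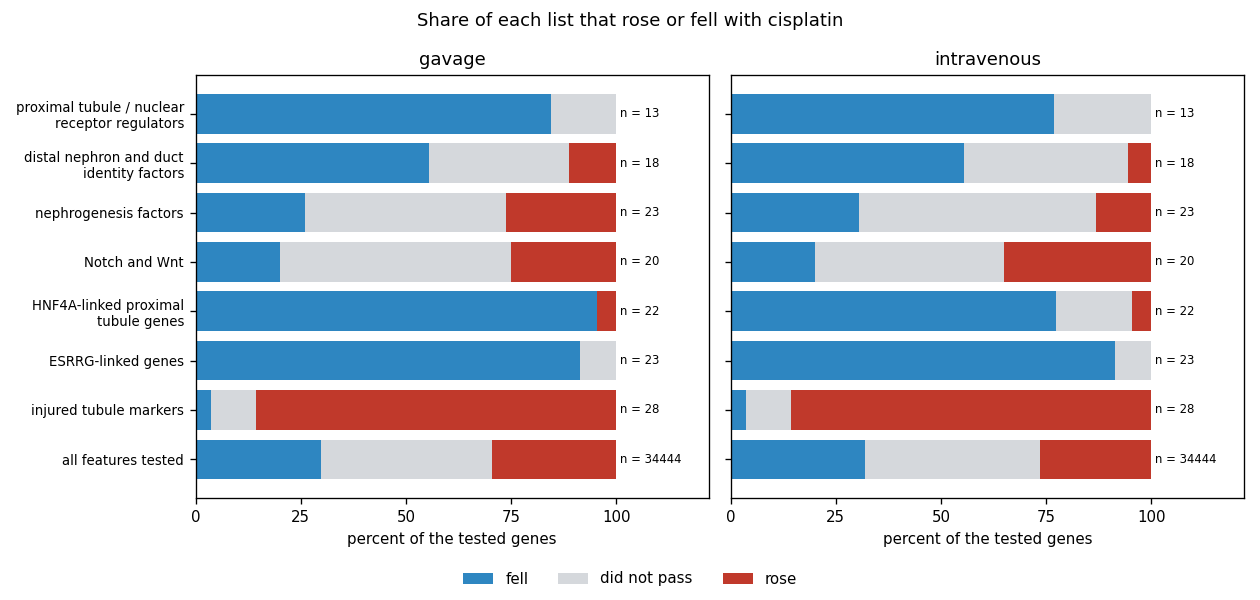
Share of the tested genes of each list (x axis, percent; y axis: lists, with n beside the bar) that fell, did not pass or rose with cisplatin in the gavage and the intravenous experiment. The HNF4A-linked and ESRRG-linked bars are mostly falls (21 of 22 and 21 of 23 with gavage), while nephrogenesis factors are mixed.

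Factors of nephron formation other than these genes were mixed, and their gavage counts were near the shares over all features. Of 23 measured, 6 rose and 6 fell with gavage (median -0.06), beside 29.5% and 29.8% of all features. Intravenously 3 rose and 7 fell (median 0.01), beside 26.4% and 32%. Wnt4, a signal that starts nephron formation, rose by 1.49 (SE 0.22) and 1.30 (SE 0.22), and the homeobox gene Hoxa11 by 1.19 and 0.71. Tcf21, a mesenchymal and podocyte factor, rose by 0.91 with gavage, and its intravenous value was 0.37 (adjusted p = 0.0687). Osr1, among the 6 that rose with gavage, was above background on 0 water arrays and passed the filter only through gavage cisplatin. Gdnf, the growth factor of ureteric budding, changed by -0.70 and -0.62 on its brightest probe, but by 0.42 and 0.12, without passing, as the mean of its probes. By spike-in scaling 16 rose and 1 fell with gavage, and 12 rose and 0 fell intravenously. Of 34444 features, 21569 rose and 3290 fell with gavage on that scale, and 18473 and 3241 intravenously. Without intravenous cisplatin replicate 2, 3 fell intravenously.

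Factors of the distal nephron and collecting duct mostly fell. Of 18 measured, 10 fell and 2 rose with gavage (median -0.67), and 10 fell and 1 rose intravenously (median -0.59). Ovol1 changed by -2.64 (SE 0.13) and -2.20 (SE 0.13), Tfcp2l1, a collecting duct factor, by -1.35 in each experiment, and Sim1 by -1.25 and -1.22. Elf3, an epithelial ETS factor, rose by 1.62 and 0.91. On the spike-in scale 5 fell and 7 rose with gavage, and 4 fell and 6 rose intravenously.

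Relatives of Pax2, Sox4 and Lhx1 were followed family by family. Over all features 29.5% rose and 29.8% fell with gavage, and 26.4% rose and 32% fell intravenously. Both other Pax genes that passed the filter fell: the values were -1.55 and -1.51 for Pax5 and -1.29 and -1.53 for Pax3, though Pax3 did not pass as the mean of its probes (-0.34 and -0.75). Of 10 other Sox genes, 3 rose and 2 fell with gavage (median 0.06) and 1 rose and 3 fell intravenously (median 0.06). Sox11, of the same subgroup as Sox4, rose by 1.25 (SE 0.28, adjusted p = 0.00343) and 1.11 (SE 0.28, adjusted p = 0.00694), and was above background on 1 and 2 of the 3 water arrays. Sox12, also of that subgroup, read 1.14 (adjusted p = 0.0461) and 0.84 (adjusted p = 0.125), and was above background on 1 of the 3 water arrays in each experiment. It kept its gavage call in 9 other settings and lost it in 16, among them normexp with quantile normalization (0.26) and the fits without gavage water replicate 1 (0.72) or gavage cisplatin replicate 1 (0.80). Sox2 changed by -1.22 and -1.45, and Sox10 by -0.51 and -0.55. Sox13 rose by 0.37 with gavage, with 0.03 intravenously, and Sox6 changed by -0.72 intravenously, with -0.60 for gavage. Sox5, Sox7, Sox17 and Sox18 did not pass in either experiment. The Sox genes that rose with gavage numbered 1 without gavage water replicate 1 and 1 without gavage water replicate 3. Those that fell with gavage numbered 1 without gavage water replicate 1 or gavage cisplatin replicate 1, and those that fell intravenously 1 without intravenous cisplatin replicate 2. Spike-in scaling gave 7 that rose and 0 that fell with gavage, and 6 and 1 intravenously. Sox11 and Sox12 passed the filter only through the cisplatin groups, where they were higher. Among genes well above background on all 12 arrays, 1 Sox gene rose with gavage and 0 intravenously.

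Of 6 relatives and partners of Lhx1, 2 rose and 2 fell with gavage (median -0.06), and 2 rose and 1 fell intravenously (median -0.07). Lhx6 rose by 1.90 and 1.33 on its brightest probe, though the mean of its probes was 0.01 and -0.03. Lhx2 was not well above background on any water array and rose at least 1.41-fold with gavage, with the brighter group's mean set against the lowest signal well above background. Intravenously it also passed, with 1 of 3 cisplatin arrays above background and no fold given. Lhx4 changed by -0.75 and -0.93 and Isl2 by -0.43 with gavage, with -0.29 intravenously. With gavage, Lhx4 did not pass as the mean of its probes (-0.25, adjusted p = 0.231) or on the spike-in scale (-0.09, adjusted p = 0.668). The LIM cofactors Ldb1 (0.06 and -0.11) and Ldb2 (-0.17 and -0.02) did not pass. The number that rose intravenously was 1 without either of intravenous cisplatin replicates 1 and 2 or intravenous water replicates 1 and 2. The number that fell with gavage was 1 without any 1 of gavage water replicates 1 and 2 and gavage cisplatin replicates 2 and 3, where Isl2 lost its call. With spike-in scaling 4 rose and 0 fell in each experiment. Lhx2 passed the filter only through gavage cisplatin. Among genes well above background on all 12 arrays, 1 rose in each experiment and 1 fell with gavage.

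Markers of cell types and of injury moved together with these genes. The summed level of 10 proximal tubule markers, in multiples of the 75th percentile, was 2261 to 2576 with gavage water and 151 to 358 with gavage cisplatin. It was 2060 to 2400 with intravenous water and 280, 715 and 889 with intravenous cisplatin replicates 1, 2 and 3, an order shared with the Hnf4a level of these 3 animals. With gavage cisplatin replicates 1, 2 and 3 it was 268, 358 and 151, an order not shared with Hnf4a (1.03, 0.80 and 0.52). All 10 fell with gavage (median -3.18) and 9 fell intravenously (median -1.75). Of 28 injured-tubule markers, 24 rose and 1 fell in each experiment (medians 2.03 and 1.73; 2 fell in each without intravenous cisplatin replicate 1), and their sum went from 169 to 181 up to 872 to 915 with gavage, and from 164 to 170 up to 755 to 924 intravenously. Among them Havcr1, the kidney injury molecule, changed by 10.95 and 11.28, the tight junction gene Cldn4 by 3.92 and 3.42, and the chaperone gene Clu by 3.72 with gavage. Of the 28 injured-tubule markers, 26 were above background on all gavage water arrays and 25 on all intravenous water arrays. The part of these marker shifts in the results on the 7 genes was not tested.

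Markers of the other cells in cortex were measured in the same way, beside falls in 29.8% (gavage) and 32% (intravenous) of all features. Rises made up 29.5% and 26.4% of all features. All 6 thick limb and distal tubule markers tested fell in each experiment (medians -2.46 and -2.35), with sums of 597 to 701 on water arrays and 16.5 to 81.1 on cisplatin arrays; Pvalb was above background on 0 water arrays. Of 9 collecting duct markers 7 fell in each (sums of 179 to 237 on water and 110 to 255 on cisplatin arrays), and 4 fell intravenously when intravenous water replicate 1 or 2, or cisplatin replicate 2 or 3, was left out. Under spike-in scaling 3 collecting duct markers fell and 1 rose with gavage, and 1 fell and 1 rose intravenously. Of 8 podocyte markers 5 fell with gavage, and 4 fell and 1 rose intravenously (sums of 34.3 to 47.2 on water and 28.8 to 38.9 on cisplatin arrays), and 2 fell intravenously without cisplatin replicate 2. Spike-in scaling turned the podocyte list, with 3 that rose and 0 that fell with gavage and 4 and 0 intravenously. Parietal epithelium and progenitor markers, a list that shares 4 genes with the injury list, rose in 7 of 9 with gavage, where 1 fell, and in 8 of 9 intravenously (sums of 135 to 168 and 218 to 275). Of 9 endothelial markers 3 and 2 fell and 0 rose (sums of 69.4 to 83.4 and 53.3 to 68.1), with 1 that fell intravenously without intravenous water replicate 1 or 2. This list also turned under spike-in scaling, to 6 that rose and 1 that fell with gavage and 5 and 1 intravenously. Over all 34444 features that scaling gave 21569 rises and 3290 falls with gavage, and 18473 and 3241 intravenously.

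For each gene the named genes with the most similar profile over the 12 arrays were sought among 11363 candidates, by the root mean square (RMS) log2 difference after centring each gene. For Hnf4a these were Slc5a11 (RMS 0.136), Slc10a5 (0.156) and Iyd (0.167), the first a sodium-coupled sugar and inositol transporter. For Esrrg they were Prss53 (0.192) and the phospholipase gene Pla2g6 (0.196). For Pax8 they were Shtn1 (0.104), Ltbp3 (0.106) and Akt1 (0.116), and for Pax2 Or4c103 (0.0768), Vom2r40 (0.0992) and Zdhhc18 (0.106). For Lhx1 they were Fahd2a (0.157), Acss1 (0.159) and Hdac11 (0.160), for Sox4 Cacnb3 (0.123) and Slc35d2 (0.148), and for Prom1 Limd2 (0.162), Arhgap4 (0.168) and Card9 (0.169). Slc5a11 changed by -3.22 and -2.04, beside -3.20 and -1.83 for Hnf4a, and Cacnb3 by 2.08 and 1.90, beside 2.07 and 1.95 for Sox4. Or4c103, by its symbol an olfactory receptor gene, changed by -0.58 and -0.82, beside -0.55 and -0.92 for Pax2. Vom2r40, by its symbol a vomeronasal receptor gene, changed by -0.46 and -0.87. What this says about the Pax2 probe was not tested. The likeness is a ranking over arrays that share the groups and carries no test.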

How the data were processed

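Total RNA from renal cortex of 12 rats was hybridised to 1-colour Agilent arrays. The intensity values (processed signal) and the marks of uneven and above-background spots were made by the authors with Feature Extraction 10.7.1.1, per the file headers (10.7 per the submitters' processing notes). The deposited value table holds the same signals as a ratio to each array's 75th percentile, a scale found by matching it to the 61537 probes (SD of the log2 difference 0.0003 to 0.0038). The sources used here do not give how that table was made.

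From these, log2 intensity minus the array's 75th percentile was computed, without 1439 control spots and 82 uneven spots, with 0 saturated. Accessions were named through a RefSeq table (GRCr8, names only; design assembly rn4), which gave 28206 probes a symbol and 33331 none. The probe with the highest mean stood for a gene, and a feature entered when some group had it well above background on each of its 3 arrays, which left 34444 features and 43900 probes. R 4.3.3 with limma 3.58.1 fitted the 4 group means, with two-sided tests and Benjamini-Hochberg adjustment. Each array is a separate animal by its labels, and their number limits the precision. On data simulated for the gavage comparison with 200 of 34444 features changed, 62% (log2 change of 1) and 90% (log2 change of 2) were recovered, with 11 false calls. In the measured gavage comparison 59.3% of features were called, so the simulated rates do not give the recovery in these data.

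The members and the 22 gene lists (318 genes) were chosen with earlier results of these data known. Named were all members, the 4 genes of each list with the smallest gavage p outside the marker lists, all Pax, Sox and LIM relatives and the 3 genes most similar to each member, with some items left out of the text. Alternatives covered scaling, background, filter, probe choice, slide, replicate block, array weights, deposited values and left-out arrays.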

Additional observations from a re-analysis of the deposited data

How the results depend on the processing

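Over the 26 other settings, the 7 genes kept direction and side of the threshold in 677 of 696 values; 13 more passed, 5 no longer passed and 1 changed sign. Gavage Pax2 became 0.11 with spike-in scaling, which also left 2 genes that fell intravenously. With array weights 1 gene (Hnf4a) passed the test of the difference, beside 2435 of 34444 features. Leaving out each array in turn gave 0 to 1 genes for the difference, 2 rises (2 to 2) and 3 to 4 falls with gavage, 2 to 3 rises and 4 falls (4 to 4) intravenously, and 0 (0 to 0) between water groups. A lone array left in a group by the slide block was assumed to vary like the others. Prom1 passed intravenously in 9 of 25 settings, among them quantile normalization (0.84, adjusted p = 0.0169). The replicate block left all counts as they were (2 rises and 4 falls in each experiment, 0 for the difference and the water groups). Same-numbered arrays correlated at -0.087, 0.063 and -0.038 (gavage) and -0.028, 0.0076 and -0.108 (intravenous) in their deviations. Differently numbered arrays correlated at -0.091 to 0.126. These values showed no sign of pairing, and with 3 arrays per group they cannot exclude it. Among relatives and list genes, spike-in scaling turned gavage Sox10 (0.15), Sox17 (0.62), Sox5 (0.65), Isl2 (0.22) and Ldb2 (0.49), and intravenous Sox10 (0.0068), Sox5 (0.50), Ldb2 (0.54) and Ldb1 (0.44). The mean of all probes turned Gdnf (0.42 and 0.12), intravenous Sox17 (-0.58) and intravenous Lhx6 (-0.031). Counts over the lists kept close to their value in 2105 cases, were higher in 49 and lower in 90. The causes were not tested. The intravenous change could not be fitted with the slide as a fixed block. Signals near background limit Esrrg.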

Other observations

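Genes linked to SOX9, whose own level is not analysed here, and genes of Notch and Wnt signalling were also measured. The counts here stand beside 29.5% of all features higher and 29.8% lower with gavage, and 26.4% and 32% intravenously. Of 17 SOX9-linked matrix and growth genes, 10 rose and 3 fell with gavage (median 1.05), and 9 rose and 3 fell intravenously (median 0.50). Without intravenous water replicate 2, or with spike-in scaling, 1 fell intravenously. The matrix glycoprotein Tnc rose by 4.14 (SE 0.38) and 3.13 (SE 0.38), the matricellular gene Ccn1 by 2.50 and 2.00 and the growth factor Hbegf by 2.65 and 2.58. Spon1 rose by 1.43 and 0.50, and its intravenous call was lost without intravenous water replicate 2 (0.36) or intravenous cisplatin replicate 1 (0.44).

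Of 20 Notch and Wnt genes, 5 rose and 4 fell with gavage (median 0.22), and 7 rose and 4 fell intravenously (median 0.03). The receptor Notch1 rose by 1.30 (SE 0.10) and 1.15 (SE 0.10) and Axin2, a target of Wnt signalling, by 1.42 and 1.27. Wnt7b was not well above background on any water array and rose at least 1.94-fold with gavage. Intravenously, where 2 of 3 cisplatin arrays measured it, the bound was at least 1.24-fold. Wnt2b changed by -3.21 and -2.58, with 1 and 2 of 3 cisplatin arrays above background. On the spike-in scale 14 rose and 1 fell with gavage, and 11 rose and 2 fell intravenously. Without gavage cisplatin replicate 2, 8 rose with gavage. Lef1, which rose in both experiments, was above background on 0 gavage water arrays and 1 intravenous water array. Lef1 and Wnt7b passed the filter only through cisplatin groups, where they were higher. Among genes well above background on all 12 arrays, which leaves out both, 3 rose with gavage.

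Markers of interstitial, immune and dividing cells were also counted. Fibroblast and smooth muscle markers rose in 9 of 10 and 8 of 10 (medians 2.03 and 1.43), with Lum above background on 0 water arrays. Macrophage markers rose in 8 of 10 and 5 of 10 (medians 1.48 and 1.04), with Cd163 above background on 0 water arrays. Itgam was above background on 0 gavage water arrays. Dividing-cell markers rose in 9 of 10 and 10 of 10 (medians 1.81 and 1.94), and lymphocyte markers in 1 of 8 and 4 of 8 (medians 0.06 and 0.90). The dividing-cell marker Aurkb was above background on 0 gavage water arrays and 1 intravenous water array. It passed the filter only through the cisplatin groups, where it was higher. In these 4 lists 0 fell in either experiment. The single lymphocyte marker called with gavage, Ptprc (0.61, picked out after its values were seen), lost its call without any 1 of the gavage water arrays, gavage cisplatin replicates 1 and 2, intravenous water replicates 1 and 2 or intravenous cisplatin replicate 3. Scaled on the spike-ins, 4 lymphocyte markers rose with gavage and 9 macrophage markers intravenously.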
